A study of Homo sapiens with 6 samples.

Results

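The 3 fibrinogen genes, FGA, FGB and FGG, encode the α, β and γ chains of fibrinogen and lie side by side on the long arm of human chromosome 4. They were taken by gene name, with no threshold on a measured value but with earlier results of these data known. They are 3 of the 20033 protein-coding genes of GENCODE release 44. Their chromatin was examined for binding of the TTD, the Tandem-Tudor domain of UHRF1, in HepG2, an established line of untreated hepatoblastoma cells. The GST-tagged TTD, residues 126 to 280 of UHRF1, took the place of the antibody in a pull-down of native mononucleosomes, a method called CIDOP. TTD CIDOP, H3K9me2 ChIP and input were each made in 2 biological replicates from the same kind of cells, 6 libraries in all, and no group carried a genetic change or a drug. The values below come from 1 list of 31569 TTD peaks that the authors called on the mean of the 2 TTD replicates, so the list holds no error between replicates, no score and no depth of a library. No test between groups was therefore possible. Shares of genes carry 95% Wilson intervals, which cover counting error only.

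Fibrinogen is made by hepatocytes and secreted into plasma, where thrombin cleaves it to fibrin, the mesh of a blood clot. It is also a ligand of the platelet integrin and an acute-phase protein, whose genes are switched on together by interleukin-6, with C/EBP among the factors that act on them. UHRF1 brings the DNA methyltransferase DNMT1 to newly replicated DNA, and its TTD reads methylated lysine 9 of histone H3, a mark of repressed chromatin that lies in broad domains. The study reports stronger binding of the TTD where the enhancer mark H3K4me1 is also present. A peak in the list is therefore a stretch of chromatin that the isolated domain pulled down, and does not show where the whole UHRF1 protein sat in these cells. Expression of the genes was not analysed here.

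The promoters of the 3 genes are the regulatory sequences next to the peaks, and only that of FGB lay within one. The 250 bases before the RefSeq start of each gene on GRCh38.p14 are written 5′ to 3′ on the strand of the gene, with the motif matches in capitals. The RefSeq start of FGG is that of the canonical transcript, 311 bp inside the gene record from whose end the TSS cover of FGG was measured, so its window lies within that record.
FGB, chr4:154562761-154563010, plus strand: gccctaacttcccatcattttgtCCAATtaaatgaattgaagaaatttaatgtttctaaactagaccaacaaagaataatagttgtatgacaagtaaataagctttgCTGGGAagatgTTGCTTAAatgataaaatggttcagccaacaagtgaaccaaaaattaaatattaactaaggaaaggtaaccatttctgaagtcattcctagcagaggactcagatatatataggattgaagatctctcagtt
FGA, chr4:154590743-154590992, minus strand: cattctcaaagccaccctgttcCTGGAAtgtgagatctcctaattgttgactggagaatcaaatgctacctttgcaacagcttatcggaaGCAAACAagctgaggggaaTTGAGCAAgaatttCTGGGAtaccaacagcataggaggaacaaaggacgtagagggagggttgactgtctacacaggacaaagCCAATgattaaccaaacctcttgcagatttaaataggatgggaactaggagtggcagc
FGG, chr4:154612657-154612906, minus strand: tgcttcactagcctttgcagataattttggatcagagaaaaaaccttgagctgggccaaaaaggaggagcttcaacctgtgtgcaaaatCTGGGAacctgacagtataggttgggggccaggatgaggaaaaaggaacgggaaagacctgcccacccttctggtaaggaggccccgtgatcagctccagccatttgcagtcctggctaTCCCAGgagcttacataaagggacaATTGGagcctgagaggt

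The motifs were searched on both strands in these windows and in the promoters of the same length of 15345 protein-coding gene symbols. The C/EBP-type sequence TTGCNNAA was found at −141 to −134 in FGA and at −132 to −125 in FGB, counted backwards from the start, and in 7.02% of all promoters. It was not in the window of FGG, which says only that these letters were absent there. The interleukin-6 response core CTGGGA was in all 3 windows, at −127 to −122 in FGA, at −143 to −138 in FGB, and at −161 to −156 and −42 to −37 in FGG, and was common, with 30.7% of all promoters holding it. Its variant CTGGAA was found in FGA and in 17.1% of promoters. The FOXA sequence TGTTTGC was found in FGA and in 2.37% of promoters, whereas TGTTTAC was in none of the 3 and in 2.15% of all. The CCAAT box was in all 3 windows and in 34.9% of promoters, and neither the E-box CACGTG (7.90%) nor the TATA box TATAAA (9.08%) was in any of the 3. TTD peaks covered 100.0% of the FGB window and 0% of the FGA and FGG windows. The windows were poor in CpG, the substrate of DNA methylation, with 2 CpGs in FGA, 0 in FGB and 2 in FGG. A match of this kind is a run of letters, not a site known to be bound in these cells.

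TTD peaks covered the fibrinogen locus densely. From the start of FGB to the end of the FGG record (chr4:154563011-154612967) the cluster measured 49957 bp, of which 29240 bp or 58.5% lay in peaks, against 2.14% of chromosome 4 as a whole. The cover of the cluster was thus 27.4 times that of the chromosome. When chromosome 4 was divided into adjoining windows as long as the cluster, 77.0% of them held no peak and 2 of 3807, or 0.0525% (0.0144 to 0.191%), had at least the cover of the cluster. These 2 windows lay at TBC1D1 (70.3%), a regulator of glucose transport, and at ALB and AFP (61.9%), the genes for albumin and α-fetoprotein, which are also made by liver cells. The grid was fixed from the first base of the chromosome, and its own window nearest the fibrinogen genes had 58.0%.

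**Figure D1:**
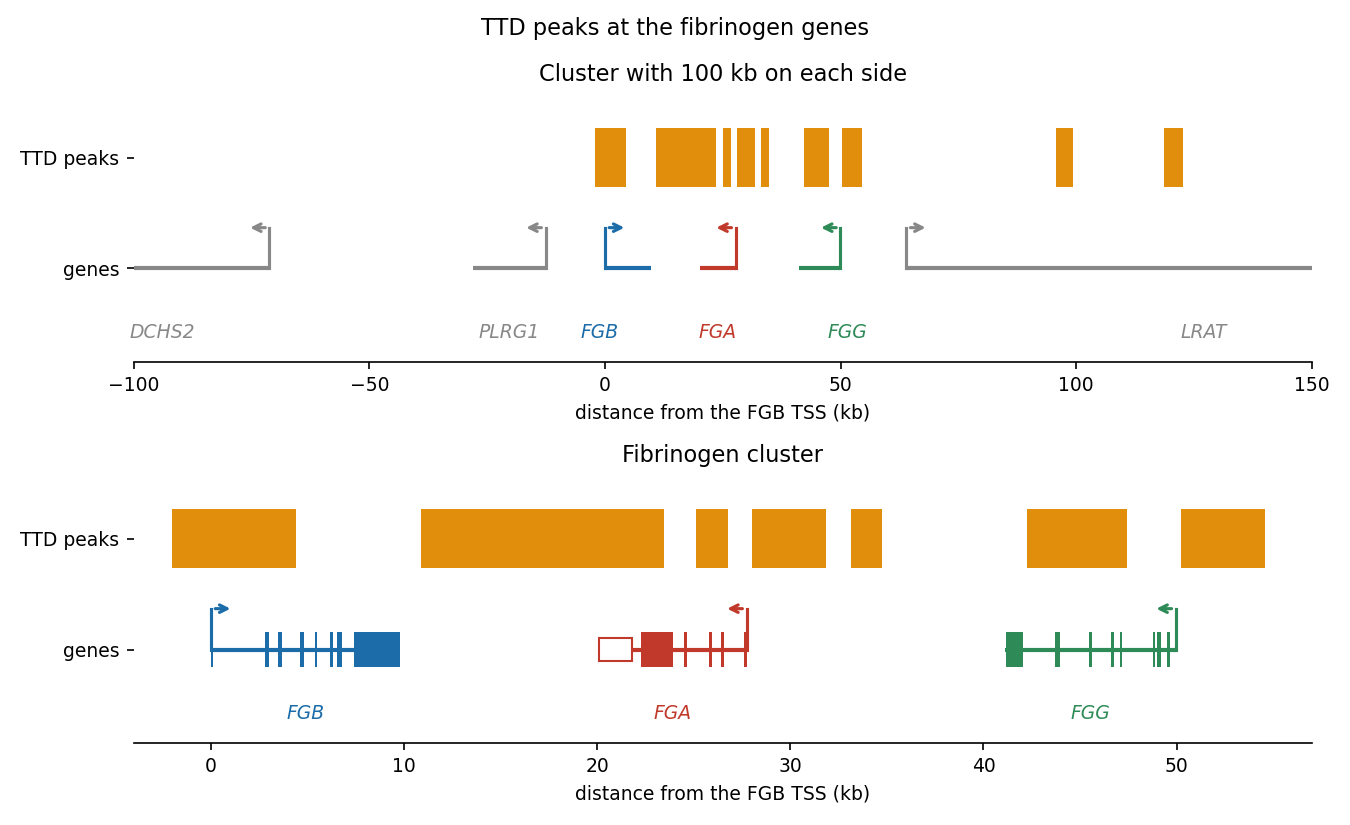
TTD peaks (orange) and protein-coding genes, by distance from the TSS of FGB in kb, with 100 kb on each side (top) and over the cluster alone (bottom); arrows mark the TSS and direction of a gene, filled boxes the exons of the canonical transcript, and the open box the last exon of the long FGA isoform. 7 peaks lie between PLRG1 and LRAT, and the peak at FGB is the first one to the right of a stretch of 893.6 kb without any.

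The peaks formed a compact group that ended before both neighbouring genes. 6 peaks touched the cluster, of which 5 lay wholly inside it, and a further one began 284 bp upstream of FGG. The first peak, at chr4:154560971-154567390, was 6420 bp wide and covered the promoter and first part of FGB. The second, at chr4:154573891-154586470, measured 12580 bp and ran from the space behind FGB into the 3′ part of FGA. It was the 354th widest of the list, where 1.13% of peaks were at least as wide and the median width was 2250 bp. Within FGA followed a narrow peak of 1630 bp at chr4:154588131-154589760, and behind the FGA start a peak of 3840 bp at chr4:154591041-154594880 and one of 1590 bp at chr4:154596161-154597750. The peak inside FGG, at chr4:154605241-154610460, was 5220 bp wide, and the one upstream of FGG, at chr4:154613251-154617600, was 4350 bp wide. The narrow peaks of 1630 and 1590 bp were below the median width, and the other 5 above it.

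These 7 peaks were separated by gaps of at most 7490 bp and spanned 56.6 kb, of which 62.9% was covered. With all peaks of the list that lay within 10 kb of each other taken as one chain, 232 of 20920 chains (1.11%) held at least 7 peaks and 189 (0.903%) covered at least as many bases. Of the 964 chains on chromosome 4, 3 covered as many bases, that of the fibrinogen genes included. The chain began after 893.6 kb without a peak, a gap matched or exceeded by 43 of the 1378 gaps on chromosome 4, whose median was 29660 bp. On the other side the next peak lay 41.1 kb away, inside LRAT. The 7 peaks and 2 within LRAT were the only 9 over the 1.21 Mb between the peaks that end at 153667390 and begin at 154875571.

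The cover differed between the spaces and between the flanks. The 10318 bp between the 3′ ends of FGB and FGA were covered to 89.5%, more than any gene of the cluster. The 13391 bp upstream of FGA, up to the 3′ end of FGG, were covered to 40.5%, and the 13977 bp between the start of FGG and LRAT to 31.1%. The space between PLRG1 and FGB was covered to 16.2%, all of it next to the start of FGB. Of the 100 kb beyond the cluster, the side of FGB had 2.04% in peaks and that of FGG 11.9%. PLRG1, which encodes a subunit of a splicing complex, and DCHS2, a protocadherin gene, had no peak in their bodies, and LRAT, the enzyme that esterifies retinol, had 5.97% of its body in 2 peaks. None of these neighbours had a peak within 2.5 kb of its TSS, and the nearest peak was 10571 bp away from that of PLRG1 and 9345 bp from that of LRAT. The next genes outwards, SFRP2 and RBM46, had no peak in the body or the TSS window, with the nearest peak 121693 bp and 94358 bp from the TSS.

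All 3 gene bodies had a large share of their bases in peaks. FGB, the β chain gene (ENSG00000171564, chr4:154563011-154572807, plus strand), was covered to 44.7%, which is 4380 of 9797 bp. FGA, the α chain gene (ENSG00000171560, chr4:154583126-154590742, minus strand), was covered to 65.3%, which is 4975 of 7617 bp. FGG, the γ chain gene (ENSG00000171557, chr4:154604134-154612967, minus strand), was covered to 59.1%, which is 5220 of 8834 bp. By comparison, 65.8% of all protein-coding genes had no peak in the body, the median cover was 0 and the mean 3.39%, and the median of those with a peak was 5.44%. The cover of FGB, the lowest of the 3 with all peaks counted, was reached by 202 genes or 1.01% (0.879 to 1.16%). That of FGG was reached by 115 and that of FGA by 91, each count holding the gene itself. With peaks of at least 2250 bp alone, FGA had 43.9%, just below FGB. Among the 4203 genes of 5 to 15 kb, the range in which all 3 fall, 1.43% (1.11 to 1.83%) reached the cover of FGB. The 3 genes are neighbours and share a chain of peaks, so they do not count as 3 independent observations.

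**Figure D2:**
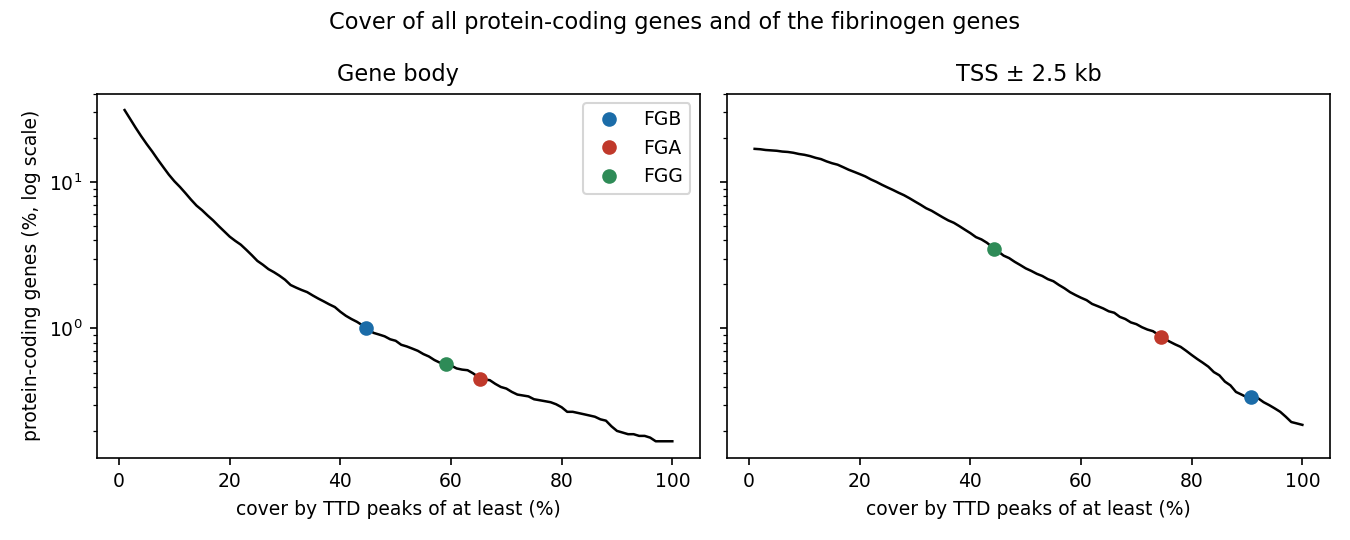
Percent of protein-coding genes (vertical axis, log scale) whose body (left) or TSS window (right) has at least the TTD peak cover on the horizontal axis, in percent of bases, with the fibrinogen genes marked. FGB, FGG and FGA stand at 1.01%, 0.574% and 0.454% of genes for the body, and at 0.339%, 3.50% and 0.874% for the TSS window.

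Runs of neighbours in which every gene was covered this far were few. Of 19985 runs of 3 consecutive protein-coding genes, 8 or 0.0400% (0.0203 to 0.0790%) had a body cover of at least that of FGB in each gene, with the fibrinogen run among them. The other 7 runs overlap in part and lie at 5 loci. They include TXNL4B, HP and HPR, which include the genes for haptoglobin and haptoglobin-related protein, the UGT2B genes for steroid and drug glucuronidation, the ACSM genes for medium-chain acyl-CoA synthetases, BAAT (bile acid conjugation) with MRPL50 and ZNF189, and FITM1, PSME1 and EMC9. Haptoglobin is, like fibrinogen, an acute-phase protein of the liver, and HP had 88.9% of its body in peaks.

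Within the genes, the peaks lay over different parts. In FGB the peak covered exons 1 to 3 and introns 1 and 2 completely and 78.0% of intron 3, and none of exons 4 to 8. This left the exons of the canonical transcript covered to 13.7% and its introns to 63.1%. In FGA exons 2 and 3 were covered completely and exon 5, which encodes most of the long αC region, to 72.7%, while exons 1 and 4 had no cover. Here the exons were covered further than the introns, to 68.2% against 40.5%. Exon 6 of the long isoform, which adds a fibrinogen-like domain to the α chain, was 1708 bp long and covered to 100.0%. In FGG exons 5 to 8 were covered completely, exons 1 to 4 and exon 9 not at all, which gave 35.1% for the exons and 70.0% for the introns. The cover was thus promoter-proximal in FGB, interrupted at the start in FGA, and central in FGG.

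The 3 TSSs lay near peaks, but in different positions towards them. For a TSS window of 2.5 kb on each side of the 5′ end, 90.8% of the bases lay in peaks at FGB, 74.4% at FGA and 44.3% at FGG. With 5 kb on each side the order turned, to 68.4% at FGG, 64.2% at FGB and 62.0% at FGA. FGA had 36.0% with 1 kb on each side, and 44.0% in the 2.5 kb window when the peaks narrower than 2250 bp were left out, just below FGG. A peak within 2.5 kb of the TSS was present at all 3 genes, and at 3390 of all 20033 genes, 16.9% (16.4 to 17.4%). The share was 13.9% among the genes of 5 to 15 kb and 14.5% among the 757 genes of chromosome 4. Of all runs of 3 consecutive genes, 2.18% had such a peak at each TSS. The median cover of a TSS window was 26.8% where a peak was present, below that of each fibrinogen gene. The cover of FGB was reached at 68 genes, that of FGA at 175 and that of FGG at 701.

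The peak at FGB ran across the TSS without interruption, from −2040 to +4379 bp. A TSS inside a peak was found for 589 genes, 2.94% of all. At FGA the TSS lay in a gap of 1280 bp between peaks (chr4:154589761-154591040), with one peak from −4138 to −299 bp and the next from +982 to +2611 bp. A TSS outside peaks with a peak on both sides within 2.5 kb was found for 336 genes, 1.68% of all and 9.91% of those with a peak in the window. At FGG the upstream peak ended 284 bp before the 5′ end of the gene record, and the peak within the gene began 2507 bp after it, just past the edge of the window. The gap of 2790 bp (chr4:154610461-154613250) therefore held the TSS, and downstream bases within 2.5 kb had a cover of 0. The canonical transcript of FGG starts 311 bp further inside the gene, and measured from there peaks lay on both sides, from −4944 to −595 bp and from +2196 to +7415 bp. Over the list as a whole, most short gaps held no TSS, but the share expected from their length alone was not computed. Of the 2776 gaps no longer than that at FGA, 82 or 2.95% (2.39 to 3.65%) held a TSS of a protein-coding gene, and of the 4955 no longer than that at FGG, 258 or 5.21% (4.62 to 5.86%).

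**Figure D3:**
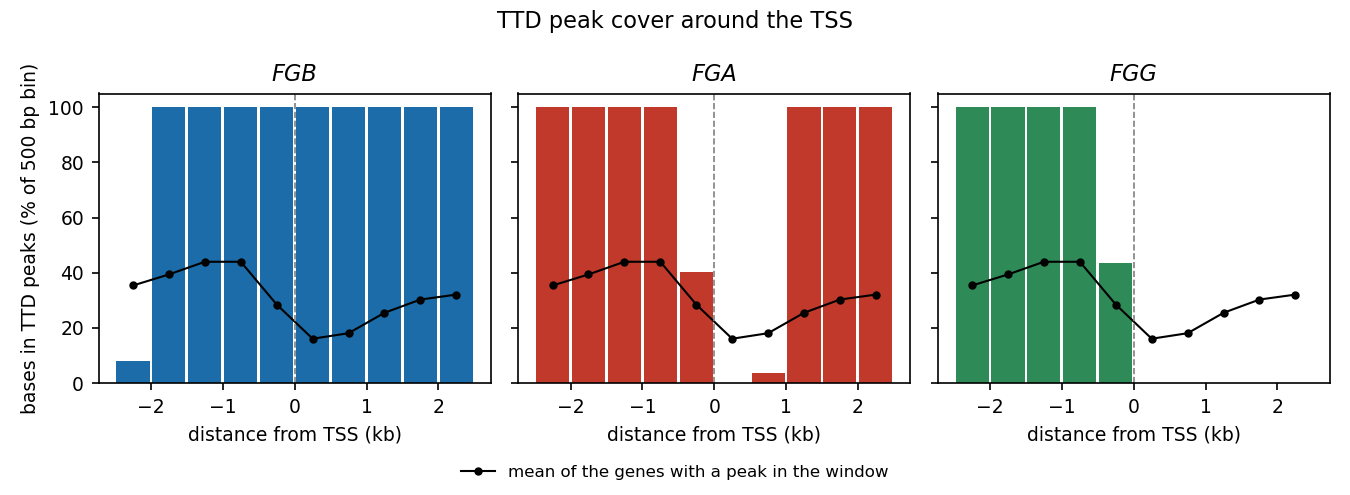
TTD peak cover in 500 bp bins (vertical axis, percent of bases) by distance from the TSS in kb, negative being upstream, for FGB, FGA and FGG (bars) and as the mean of the genes with a peak in the window (line). FGB is covered to 100% in 9 of 10 bins, FGA is bare just downstream of the TSS and FGG has cover on the upstream side alone, while the mean falls from 44.0% upstream to 16.1% just downstream of the TSS.

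Taken over 2.5 kb, the upstream sides of the 3 genes were covered to a similar extent and the downstream sides were not. The upstream 2.5 kb were covered to 81.6% at FGB, 88.0% at FGA and 88.6% at FGG, the downstream 2.5 kb to 100.0%, 60.8% and 0%. In bins of 500 bp the upstream sides differed. The bin farthest upstream had 8.00% at FGB and 100.0% at FGA and FGG, and the bin next to the TSS had 100.0%, 40.4% and 43.4% at FGB, FGA and FGG. The mean over the genes with a peak was lowest in the first 500 bp downstream, at 16.1%, where FGB had 100% and FGA and FGG 0. Over the whole window, the cover from other annotated starts kept the order of FGB, FGA and FGG. FGB has 7 annotated transcripts with 6 TSSs, all inside the peak and with 82.2 to 91.3% of their windows covered. FGG has 12 transcripts with 9 TSSs, whose windows were covered to between 44.2 and 62.4%, and 1 of these TSSs, that of a transcript with a retained intron, lay inside a peak. The downstream value of 0 at FGG holds for the 5′ end of the gene record and not for all of its starts. The 2 transcripts of FGA share their TSS.

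The TSS regions of the fibrinogen genes were also poor in CpG. In the 1 kb around the TSS, the observed to expected ratio of CpG was 0.137 at FGB, 0.0966 at FGA and 0.126 at FGG, with 3, 4 and 7 CpGs, against a median of 0.688 over all genes. At most 5.40% of genes had a ratio as low as that of FGB. Among the 5009 genes with the lowest ratios, up to 0.329, a peak lay within 2.5 kb of the TSS at 15.1% (14.1 to 16.1%), near the 16.9% of all genes. The 7 peaks of the locus had GC contents of 32.6 to 40.2% and CpG ratios of 0.107 to 0.327. The GC content was 37.5% over the cluster and 37.9% over the space between PLRG1 and LRAT. In the 1 kb around the TSS it was 29.7% at FGB, 40.7% at FGA and 47.1% at FGG. No GC background was computed, and the part of base composition in the peak cover was not tested.

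Genes that act with fibrinogen were then counted in the same way. Of 24 genes of the coagulation cascade and its inhibitors, 9 or 37.5% (21.2 to 57.3%) had a peak within 2.5 kb of the TSS, against 16.9% of all genes. Some of these genes lie close together, such as KLKB1 and F11, and the interval does not allow for this. They were led by the protein C inhibitor SERPINA5 (88.8% of the window), the protein Z-dependent inhibitor SERPINA10 (82.6%), prekallikrein KLKB1 (57.5%) and the tissue factor pathway inhibitor TFPI (56.2%). The F2 gene for prothrombin, whose product cleaves fibrinogen, and F7, F9 and F10 for factors VII, IX and X were at 0. Of 9 genes of fibrinolysis, the breakdown of the clot, 3 or 33.3% (12.1 to 64.6%) had a peak, an interval that holds the 16.9% of all genes. They were CPB2 (100.0%), which encodes an inhibitor of clot lysis, PLG (83.8%), which encodes plasminogen, and A2M (56.0%), which encodes the protease inhibitor α2-macroglobulin. When at least 50% of the window had to lie in peaks, 4 coagulation genes, 3 fibrinolysis genes and 2.57% of all genes were counted, and with peaks of at least 2250 bp alone 8, 3 and 7.29%. In both lists the median cover was 0, as it was over all genes.

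Receptors of fibrinogen, regulators of its genes and relatives of its chains were counted too, and the 16.9% of all genes lay inside the interval of each of these 3 lists. Of 8 receptor genes, 2 had a peak there (interval 7.15 to 59.1%), the β3 integrin ITGB3 (40.4%) and the αV integrin ITGAV (1.18%), while ITGA2B, the platelet partner of ITGB3, was at 0. Of 11 genes of interleukin-6 signalling and of factors that act on the fibrinogen promoters, 3 had one (27.3%, 9.75 to 56.6%), namely USF1 (44.1%), CEBPA (15.9%) and STAT3 (12.2%), and CEBPB and SOCS3 were at 0. No receptor or regulator gene had 50% of its window in peaks. Of 20 genes for proteins with a fibrinogen-like domain, 1 had a peak (5.00%, 0.888 to 23.6%). The TSS cover of FGG, the lowest of the fibrinogen genes with all peaks and 2.5 kb on each side, was reached by 5 coagulation genes and 3 fibrinolysis genes, and by none of the receptor or regulator genes. For the gene body, TFPI (50.0%) alone of these lists reached the 44.7% of FGB. The counts of these lists are small and their intervals wide, and no difference between a list and all genes was tested.

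**Figure D4:**
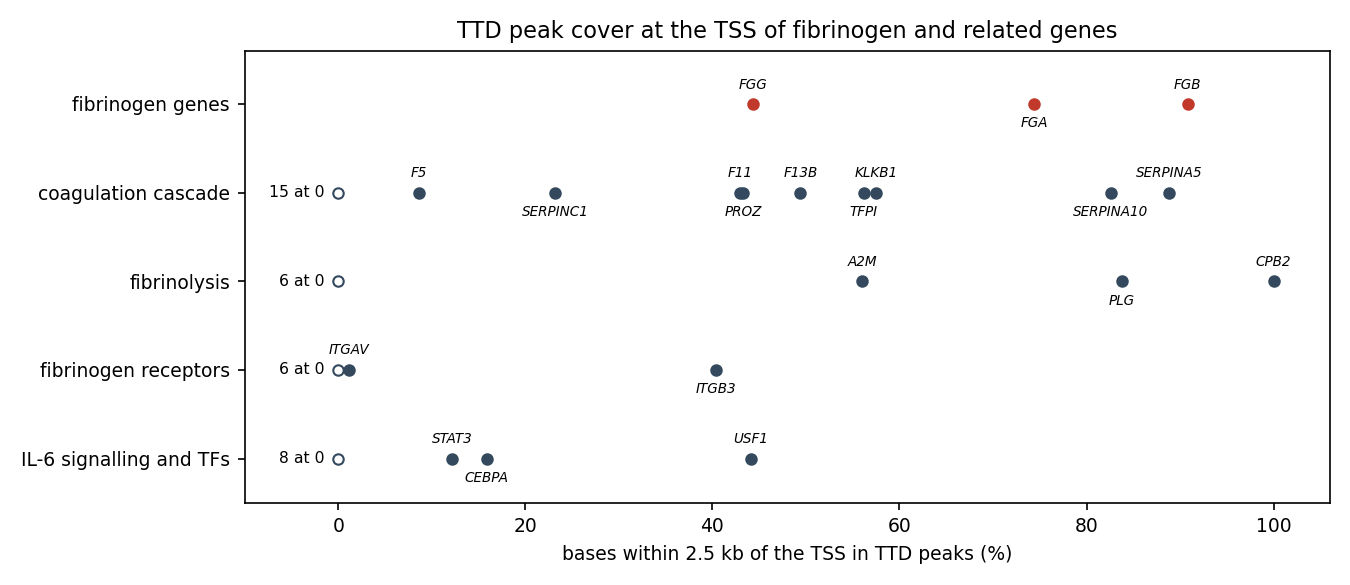
Percent of bases within 2.5 kb of the TSS in TTD peaks (horizontal axis) for the fibrinogen genes (red) and each gene of 4 lists of related genes (dark), with the number of genes at 0 given beside the open point; the list with a fibrinogen-like domain is not plotted. The fibrinogen genes lie at 44.3, 74.4 and 90.8%, while 15 of 24 coagulation genes, 6 of 9 fibrinolysis genes, 6 of 8 receptor genes and 8 of 11 regulator genes are at 0.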

How the data were processed

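Chromatin of HepG2 cells was profiled by TTD CIDOP, H3K9me2 ChIP and input, with 2 biological replicates each. Per the study's methods and the submitters' processing notes, reads were trimmed with Trimmomatic 0.38, checked with FastQC 0.72 and mapped to hg38 with HISAT2 2.2.1. RPKM in 10 bp bins and the mean of both TTD replicates were computed with deepTools 3.3.2. Broad peaks were called with MACS2 2.1.1, with removal of blacklisted regions and curation by hand. No input track is named for this step, and no correction for the copy number of a region. The deposited values are the positions and widths of peaks in bp, with no score, ratio or p-value.

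From these, cover (the percent of bases in peaks) was computed by interval arithmetic, tested on simulated peaks, with pysam 0.24.0, pandas 2.3.3 and numpy 2.4.6 under Python 3.11.15, intervals with scipy 1.17.1 and figures with matplotlib 3.10.9. An overlap of 1 bp counted as a peak in a window. The TSS is the 5′ end of the gene record on chromosomes 1 to 22, X and Y. The genes named were the 3 fibrinogen genes, their neighbours, the up to 4 genes of each list with the largest TSS cover, and examples at 0. The neighbouring runs and windows were named because they were 8 and 2, after their values were seen. Some genes and motifs are not reported here, so the list of genes with a fibrinogen-like domain is given by its count alone. The genes and lists were chosen with earlier results of these data known. Alternatives were a stricter list (peaks of at least the median width of 2250 bp), joined peaks, and other windows, starts and gene parts. A percent was said to move where it left the 95% Wilson interval of the first value, with bases counted in units of 150 bp and the gene share over all genes. Counts of listed genes were instead judged by a fixed limit on their ratio to the first count. Read depth is not known from the list, and neither the signal tracks nor the ChIP, input and expression data were analysed here.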

Additional observations from a re-analysis of the deposited data

How the results depend on the processing

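The list is pooled, so its values have no replicate error, and the absence of a peak says only that the pooled signal was not called there. No paired analysis was possible because both TTD replicates were merged before the peaks were called. Of 63 alternative values, 24 moved. Joining peaks less than 1 kb apart could move none, since the smallest gap at the locus was 1280 bp. The stricter list could not change values that rest on wider peaks alone, such as those of FGB and FGG. The number of unmoved values is thus no measure of stability. With peaks of at least 2250 bp, cover fell to 52.1% for the cluster, 43.9% for the FGA body, 44.0% for the FGA TSS and 28.7% for the FGA to FGG space, the share of genes with a TSS peak to 7.29% and the receptor count to 1, which put FGA just below FGG (44.3%) at the TSS and just below FGB (44.7%) in the body. With 1 kb on each side of the TSS, cover was 36.0% at FGA and 100.0% at FGB and the share of genes 11.1%, and with 5 kb it was 64.2% at FGB and 68.4% at FGG, now the highest of the 3, with FGA at 62.0%, and the share 22.1%. When 50% of the window had to lie in peaks, the share was 2.57%, and 4 coagulation genes, 0 receptor genes and 0 genes of interleukin-6 signalling remained. Flanks of 50 kb had 4.08% (FGB side) and 16.0% (FGG side) in peaks, and those of 200 kb 1.02% and 5.94%. Exons alone were covered to 13.7% in FGB and 35.1% in FGG, and bodies without the 2.5 kb next to the TSS to 25.8% and 82.4%. The cause of these shifts, beyond the change of window or list itself, was not tested.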
